A study of Homo sapiens with 16 samples.

Results

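The 39 HOX cluster genes were followed across 16 libraries of RWPE1, an established line of human prostate epithelial cells that is not tumorigenic. They were taken as every gene whose symbol is HOX, a cluster letter from A to D and a number, which gave 39 of 20166 symbols. Of these, 11 lie in the HOXA cluster on chromosome 7, 10 in HOXB on chromosome 17, 9 in HOXC on chromosome 12 and 9 in HOXD on chromosome 2. The cells carried an empty vector (an altered pTRIPZ, 6 libraries), a wild-type over-expression construct (6 libraries) or the T164A mutant of that construct (4 libraries). All 3 groups share the parent line and are labelled with no drug, dose or time. Inducer, clone number and whether the libraries of a group are separate cultures are not given in the sources used here, so each p-value reflects no more than how these libraries vary, and that variation may be technical.

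HOX genes encode homeodomain transcription factors that set position along the body axis, and they sit in their clusters in the order in which they are used. Low paralog numbers pattern the hindbrain and neck, middle numbers the thorax, and high numbers the lumbar, limb and urogenital regions. Adult epithelium keeps much of the code laid down in the embryo: HOXA13 and HOXD13 take part in forming the urogenital sinus, from which the prostate grows, and HOXB13 marks the secretory luminal cells of the adult gland. Polycomb complexes hold unused members silent, CDX factors and retinoic acid open the clusters in the embryo, and the TALE homeodomain proteins (PBX, MEIS and PKNOX) bind DNA together with HOX proteins.

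Expression is given as the deposited log2 value, on which 1 unit is a 2-fold difference, and a floor of 3 estimated reads lies at 2.30. Estimated depth was 12300000 to 19200000 reads per library. Basal markers were read in all 16 libraries: KRT5, the basal keratin, lay between 15.29 and 17.18, and TP63, the basal epithelial regulator, between 10.91 and 12.54. They were not at 1 level in the groups, and 5 of 9 were lower in T164A than in vector (median of the list -1.30), the desmosomal gene DSG3 at 9.27 ± 0.13 (SD, n = 4) against 13.45 ± 0.06 (SD, n = 6). Of all genes, 37.1% were called higher and 27.2% lower in T164A than in vector. In wild type 21.0% were called higher and 24.5% lower than in vector. Other marker lists also separated the groups. All 12 prostate luminal markers passed the test as higher in wild type than in vector, with a summed level (log2 of the list's sum) of 15.72 to 16.76 against 10.46 to 11.28 in vector and 11.76 to 11.87 in T164A. All 6 squamous markers were lower in T164A than in vector (summed level 6.31 to 6.52 against 14.83 to 15.04, and 13.93 to 14.42 in wild type). All 8 embryonic and neural markers, 3 of them (IRS4, PRAME and POU3F3) picked from these libraries, were higher in T164A than in vector. Their summed level was 14.30 to 14.36 in T164A, 6.93 to 7.43 in vector and 9.32 to 10.20 in wild type. Picked genes make up most of it in T164A (IRS4, mean 13.63) and in wild type (PRAME, mean 9.69). These sums are therefore no independent sign of a difference. What part these shifts had in the HOX values was not tested.

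Some promoters are shown here because they belong to genes at the extremes of the results: HOXD13 and HOXC4, which rose far in T164A, HOXD10, the HOX gene with the highest level per length in every group, and HOXB1, which stayed below the floor. Each run is the 250 bases before the RefSeq transcription start on the gene's own strand, in GRCh38.p14, with the CCAAT box (CCAAT or its reverse complement ATTGG) and the TATA motif (TATAAA or TTTATA, which overlap in HOXD13) in capitals. The HOXC4 window, chr12:54016638-54016887 on the plus strand, is also that of HOXC5. HOXD13 is at chr2:176092471-176092720 (plus), HOXD10 at chr2:176116528-176116777 (plus) and HOXB1 at chr17:48531012-48531261 (minus).
HOXD13: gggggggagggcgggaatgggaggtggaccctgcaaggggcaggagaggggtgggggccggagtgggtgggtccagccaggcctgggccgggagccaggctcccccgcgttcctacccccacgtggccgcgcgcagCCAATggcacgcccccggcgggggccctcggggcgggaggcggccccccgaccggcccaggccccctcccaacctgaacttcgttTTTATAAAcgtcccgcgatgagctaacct
HOXC4: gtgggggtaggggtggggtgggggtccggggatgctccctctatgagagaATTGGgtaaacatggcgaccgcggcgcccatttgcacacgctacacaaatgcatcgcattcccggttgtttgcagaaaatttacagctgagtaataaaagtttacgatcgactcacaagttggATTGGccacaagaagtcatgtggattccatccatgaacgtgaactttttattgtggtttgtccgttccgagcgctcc
HOXD10: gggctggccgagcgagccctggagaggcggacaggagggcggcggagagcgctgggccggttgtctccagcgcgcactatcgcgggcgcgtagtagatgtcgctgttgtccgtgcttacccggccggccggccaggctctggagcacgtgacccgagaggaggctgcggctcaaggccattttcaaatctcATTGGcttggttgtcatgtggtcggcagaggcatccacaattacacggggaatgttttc
HOXB1: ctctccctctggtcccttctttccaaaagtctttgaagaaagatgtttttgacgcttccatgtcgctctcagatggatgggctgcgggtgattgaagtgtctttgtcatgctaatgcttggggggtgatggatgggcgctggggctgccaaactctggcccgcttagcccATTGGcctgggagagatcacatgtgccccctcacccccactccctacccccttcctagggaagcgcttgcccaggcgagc

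The RefSeq table held windows for 20 of the 39 genes. A CCAAT box on either strand was found in at least 1 window of 17 of these 20 (85%), against 37% of 27305 genes. By window it was found in 18 of 27 (66.7%), against 32% of 35116 windows. Both HOX counts take the window shared by HOXC4 and HOXC5 once for each gene. The promoters printed above all hold a CCAAT box, whether the gene rose, fell or lay below the floor. TATAAA was found in 4 of 20 HOX genes (20%) against 13% of all genes, TAATTA, the homeodomain core motif, in 2 (10%) against 5.37%, and TTTATG, the core bound by CDX and posterior HOX proteins, in 3 (15%) against 11.7%. AGGTCA, the half-site of retinoid and related nuclear receptors, was in 0 of the 20 genes and in 14.6% of all genes. HOX windows had a median of 19 CpG against 11 in all windows, at a similar GC content (58.8% against 58.0%). These matches are a description of letters in a fixed window, not of binding.

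In cells with the empty vector, 34 of the 39 genes had a mean above the floor. The HOXD cluster led: per kilobase of transcript, the highest levels were those of HOXD10 (log2 level per kilobase 10.43), HOXD9 (10.08), HOXD8 (8.11) and HOXD11 (8.04), followed by HOXC6 (7.69). HOXD9 and HOXD10 belong to the group that patterns the limb and lower spinal cord, and HOXC6, a thoracic gene, is also a long-studied prostate cancer transcript. HOXD genes gave 75.7% ± 0.68 (SD, n = 6) of the summed HOX level per kilobase, HOXA 13.2% ± 0.52, HOXC 9.34% ± 0.30 and HOXB 1.78% ± 0.30. The means of HOXB1, HOXB2, HOXB7, HOXB8 and HOXD12 were below the floor in vector and in wild type, and of these HOXB1, a hindbrain gene, was also below it in T164A. In single vector libraries HOXD12 passed the floor in 3 of 6 and HOXB1, HOXB7 and HOXB8 in 1 each, and HOXB8 also did in 1 wild-type library. A mean below the floor does not show that a gene is absent.

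**Figure D1:**
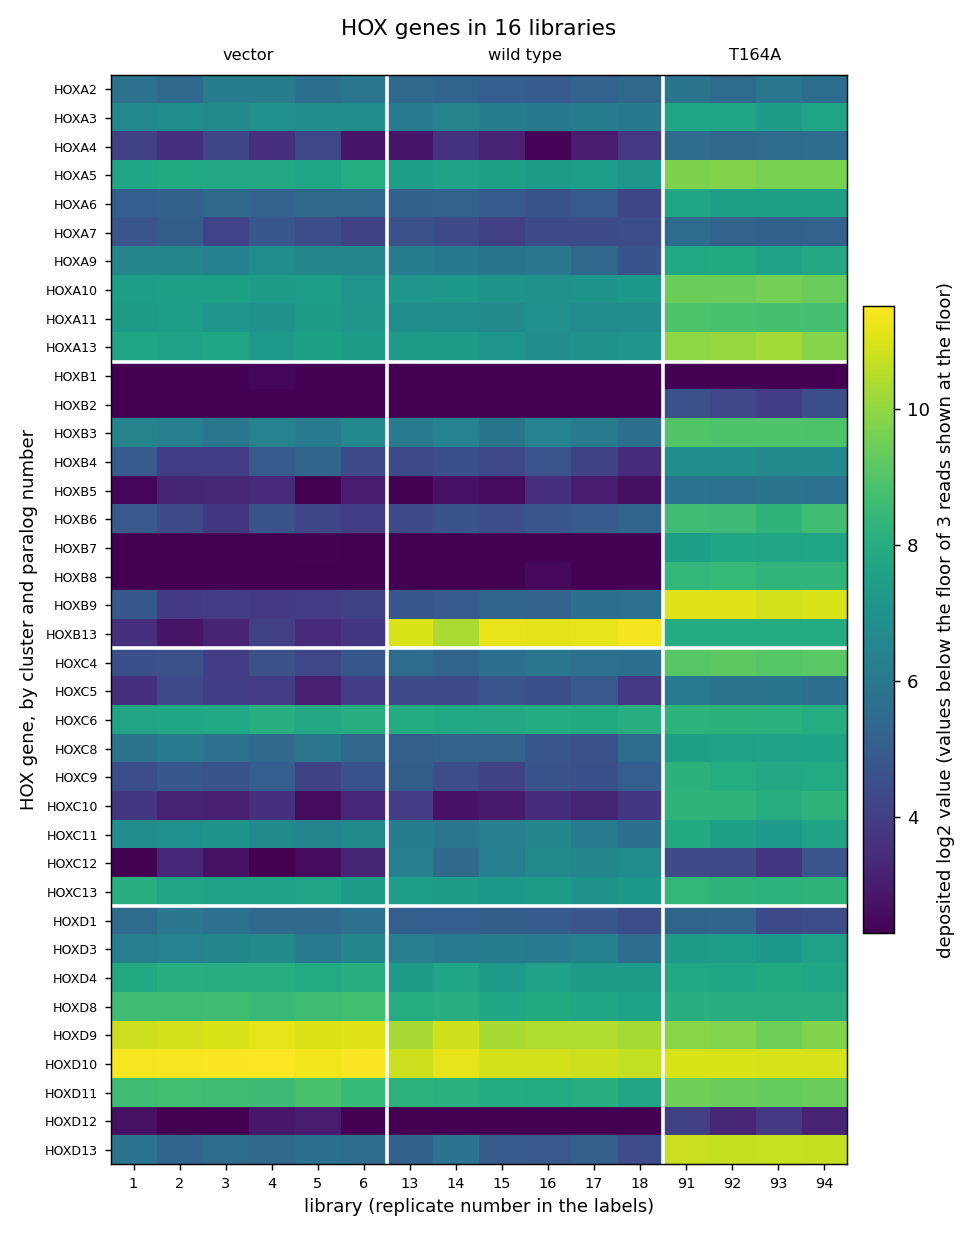
Deposited log2 value of 38 HOX genes (vertical axis, by cluster and paralog number) in each of the 16 libraries (horizontal axis, by group and replicate number), with values below the floor of 3 reads drawn at the floor of 2.30. HOXB13 is brightest in the 6 wild-type libraries, while most HOXA, HOXB and HOXC genes and HOXD13 are brightest in the 4 T164A libraries.

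The first comparison asked how HOX expression with the wild-type construct differed from that with the empty vector. With it, HOXB13, HOXC12, HOXB9 and HOXC4 were higher by 2-fold or more, and 19 genes were lower, each by less than 2-fold. In all, 6 of 39 genes passed the limma test as higher and 19 as lower, with Benjamini-Hochberg adjusted p below 0.05 over 20166 symbols. Over all genes 21.0% were called higher and 24.5% lower, while 5.98% were higher and 0.630% lower by 2-fold or more. The median HOX difference was -0.39, against -0.05 over all genes. In bulk RNA, fewer cells expressing a gene and less of its RNA per cell cannot be told apart.

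HOXB13, the most posterior gene of its cluster and a transcription factor of prostate luminal cells, moved furthest. It lay between 2.80 and 4.04 in the vector libraries (median 3.45) and between 10.34 and 11.34 in the wild-type libraries (median 11.14), and at 7.98, 7.96, 7.97 and 7.98 in T164A. The 3 groups did not overlap at any point, and the T164A libraries were nearly identical to one another. The rise over vector was 7.57 (SE 0.16, limma adjusted p = 4.42e-22). Wild-type replicate 14, which stood apart from its group over 547 highly expressed genes, was also the lowest for HOXB13. Without it and T164A replicate 93 the difference was 7.71, and without vector replicates 3, 4 and 6, the only vector libraries with KLK3 above the floor (3.47 to 4.19), it was 7.79.

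HOXC12, the second most posterior gene of HOXC, followed the same order. Its values were 1.59 to 3.31 in vector (median 2.64), 5.49 to 6.74 in wild type (median 6.39), and 4.43, 4.41, 3.74 and 4.73 in T164A. Here too the groups were fully apart, with T164A between the others. The rise in wild type was 3.68 (SE 0.28, limma adjusted p = 5.72e-11). Neither HOXB13 nor HOXC12 overlaps another annotated gene on either strand.

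HOXB9, a thoracic gene that is also active in mammary development, ranged from 3.86 to 4.85 in vector (median 3.93), where replicate 1 was the highest, and from 4.79 to 5.72 in wild type (median 5.26). The ranges met at that 1 vector library. The difference was 1.19 (SE 0.17, limma adjusted p = 2.76e-06). HOXC4, which works in neck and in blood lineages, ranged from 3.96 to 4.84 in vector (median 4.57) and from 5.28 to 5.91 in wild type (median 5.67). These did not overlap, and HOXC4 rose by 1.17 (SE 0.15, limma adjusted p = 2.55e-07). Reads of HOXC4, HOXC5 and HOXC6 come from partly shared exons and cannot be told apart fully in these counts. HOXC5 was the fifth gene called higher (0.63, SE 0.23, limma adjusted p = 0.0226), a call that ended without vector replicate 5 (0.49, adjusted p = 0.0674) or wild-type replicate 15 (0.58, 0.0532) or 17 (0.56, 0.0617). It also ended under quantile normalization (0.24, limma adjusted p = 0.417), with close libraries averaged (0.73, adjusted p = 0.157) and with a minimum fold of 1.2 (adjusted p = 0.203). HOXB8 was the sixth (limma adjusted p = 0.046) but its mean in each group was below the floor, so no fold is given.

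The falls were small and lay mostly in 2 clusters. In HOXA, 9 of 11 were lower in wild type, and in HOXD 7 of 9, in both clusters with 0 higher. HOXC had 3 higher and 3 lower, and HOXB 3 higher and 0 lower. HOXD8, a gene of the trunk and limb, was between 8.49 and 8.73 in vector (median 8.66) and between 7.65 and 8.12 in wild type (median 7.84), without overlap, a difference of -0.78 (SE 0.08, limma adjusted p = 6.27e-09). HOXD10 ran from 11.31 to 11.51 in vector (median 11.44) and from 10.68 to 11.19 in wild type (median 10.84), again apart, by -0.55 (SE 0.06, limma adjusted p = 7.12e-08). HOXD11, which with HOXA11 is needed for kidney growth, was at 8.48 to 8.88 (median 8.64) and 7.67 to 8.24 (median 8.04), and fell by 0.65 (SE 0.08, limma adjusted p = 4.79e-07). HOXA9, a gene of blood stem cells and leukaemia, was at 6.36 to 6.78 (median 6.52) in vector and 4.70 to 6.15 (median 5.93) in wild type, and its fall of 0.85 (SE 0.18, limma adjusted p = 0.000251) was the largest in HOXA. The prostate paralogs HOXA13 and HOXD13 also passed, at -0.39 (SE 0.10, limma adjusted p = 0.00259) and -0.51 (SE 0.15, limma adjusted p = 0.00716), with overlapping ranges. With close libraries averaged neither call held (adjusted p = 0.176 and 0.53).

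The remaining falls lay between 0.28 (HOXA10) and 0.76 (HOXD1). Across the 39 genes, vector and wild type did not overlap in 14, while 29.4% of all genes did not overlap. All 9 basal markers were lower in wild type as well, by a median of 0.53, KRT5 among them (16.26 to 16.72 against 16.91 to 17.18). The part of this shift in the HOX falls was not tested. When libraries that lie close together were averaged, or a minimum fold of 1.2 was required, the count of lower genes dropped from 19 to 10 in each case. Quantile normalization gave 4 higher and 24 lower.

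**Figure D2:**
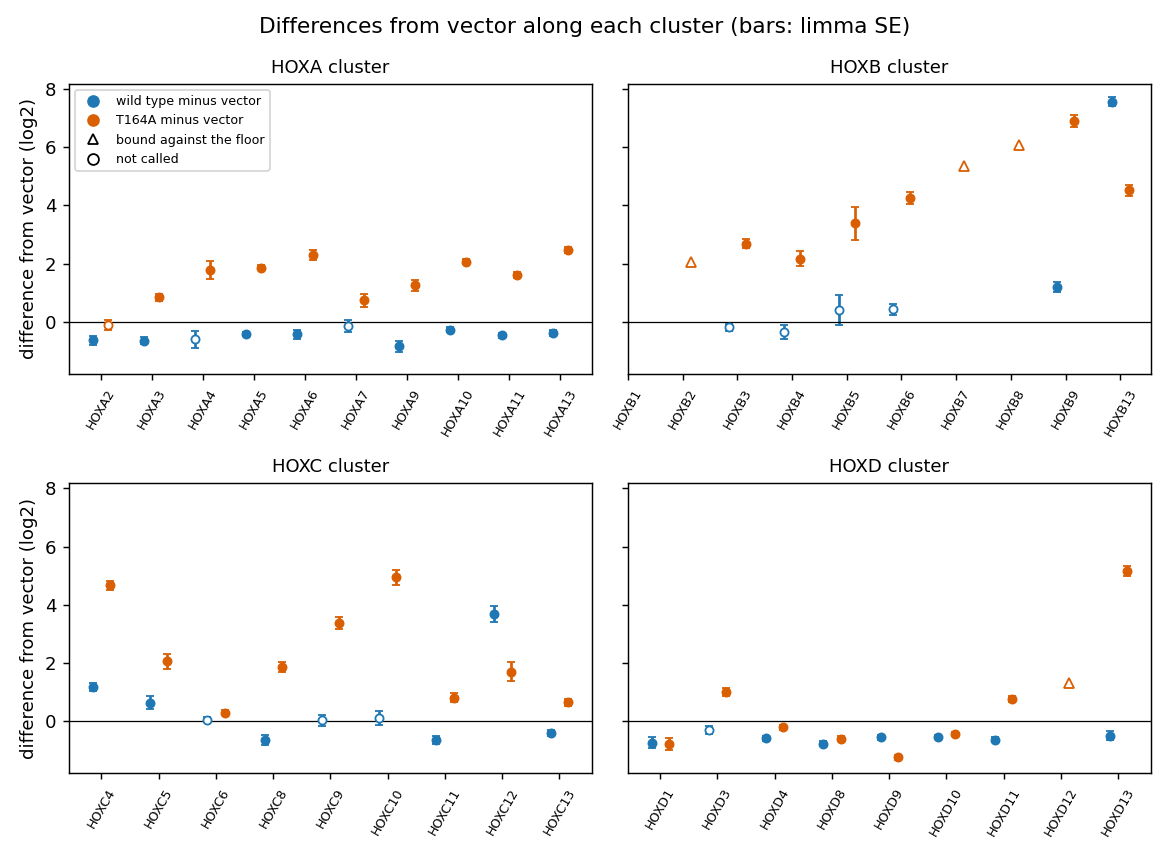
Difference from vector (vertical axis, log2) of 38 HOX genes, each in its cluster, in order of paralog number (horizontal axis), for wild type and T164A. Bars are the limma SE, open circles genes that did not pass the test and triangles bounds against the floor; HOXB13 and HOXC12 are the 2 genes where wild type lies above T164A by more than 2-fold, and HOXD13 stands apart from the rest of HOXD in T164A.

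The second comparison set the T164A mutant against the empty vector. Here the HOX clusters were broadly higher: 32 of 39 genes passed the limma test as higher and 5 as lower, and the 2 others were HOXA2 and HOXB1. Of the 32, 25 were higher by 2-fold or more and 10 by 8-fold or more, the latter being HOXB5, HOXB6, HOXB7, HOXB8, HOXB9, HOXB13, HOXC4, HOXC9, HOXC10 and HOXD13. HOXB5 reached 8-fold only with vector replicate 5, which was below the floor: its difference was 2.70 without that library and 2.83 with values below the floor raised to it. Over all genes, 37.1% were called higher and 27.2% lower, and 17.8% were higher and 11.0% lower by 2-fold or more. The median HOX difference was 1.85 against 0.11 over all genes. Quantile normalization moved the median difference of genes with a mean of at least 6 by -0.17, and the HOX median was then 1.33 with 29 genes higher and 6 lower. T164A and vector did not overlap in 35 of the 39 genes, against 55.5% of all genes.

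HOXB changed most as a cluster, with 9 of 10 genes higher and a median difference of 4.16. HOXB9 was at 11.05, 11.06, 10.89 and 10.99 in the T164A libraries, all far above the vector range of 3.86 to 4.85, and rose by 6.91 (SE 0.19, limma adjusted p = 2.3e-20). It became the HOX gene with the second highest level per kilobase in T164A (9.63, after HOXD10 at 9.98). HOXB8, a regulator of blood progenitors, had values of 8.40, 8.48, 8.33 and 8.32 in T164A, and HOXB7, a thoracic gene, of 7.51, 7.73, 7.69 and 7.73. In vector, HOXB8 reached 2.33 and HOXB7 2.37 at most, close to the floor. The rises were at least 6.08 for HOXB8 (limma adjusted p = 2.04e-13) and at least 5.36 for HOXB7 (limma adjusted p = 2.74e-11). No other gene overlaps HOXB7, HOXB8 or HOXB9 in the annotation.

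The front of the HOXB cluster rose less. HOXB6 stood at 8.66, 8.61, 8.30 and 8.69 in T164A against 3.78 to 4.86 in vector (median 4.31), 4.24 higher (SE 0.21, limma adjusted p = 1.39e-15). HOXB5, which guides enteric neurons, was at 5.81, 5.77, 5.84 and 5.74 against -0.99 to 3.39 (median 3.16), 3.38 higher (SE 0.58, limma adjusted p = 1.08e-05), a vector range and a difference both widened by replicate 5. HOXB3 was at 9.001, 8.97, 8.98 and 8.94 against 5.93 to 6.61 (median 6.33), and HOXB4, known for expanding blood stem cells, at 6.85, 6.90, 6.62 and 6.69 against 4.01 to 5.29 (median 4.67). These 4 genes were fully separated from vector. HOXB3 rose by 2.69 and HOXB4 by 2.17 (limma adjusted p = 5.99e-15 and 5.09e-08). HOXB2, a hindbrain gene, came up from below the floor to 4.58, 4.28, 4.02 and 4.51, at least 2.05 higher (limma adjusted p = 1.52e-06). HOXB3 overlaps HOXB4 and HOXB6 on its own strand, and HOXB2, HOXB3, HOXB5 and HOXB6 have antisense partners, so their reads cannot be told apart in unstranded libraries. HOXB13, at the end of the cluster, did not follow HOXB9: it rose by 4.52 (SE 0.18, limma adjusted p = 2.74e-17), and its values stayed well below those in wild type.

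**Figure D3:**
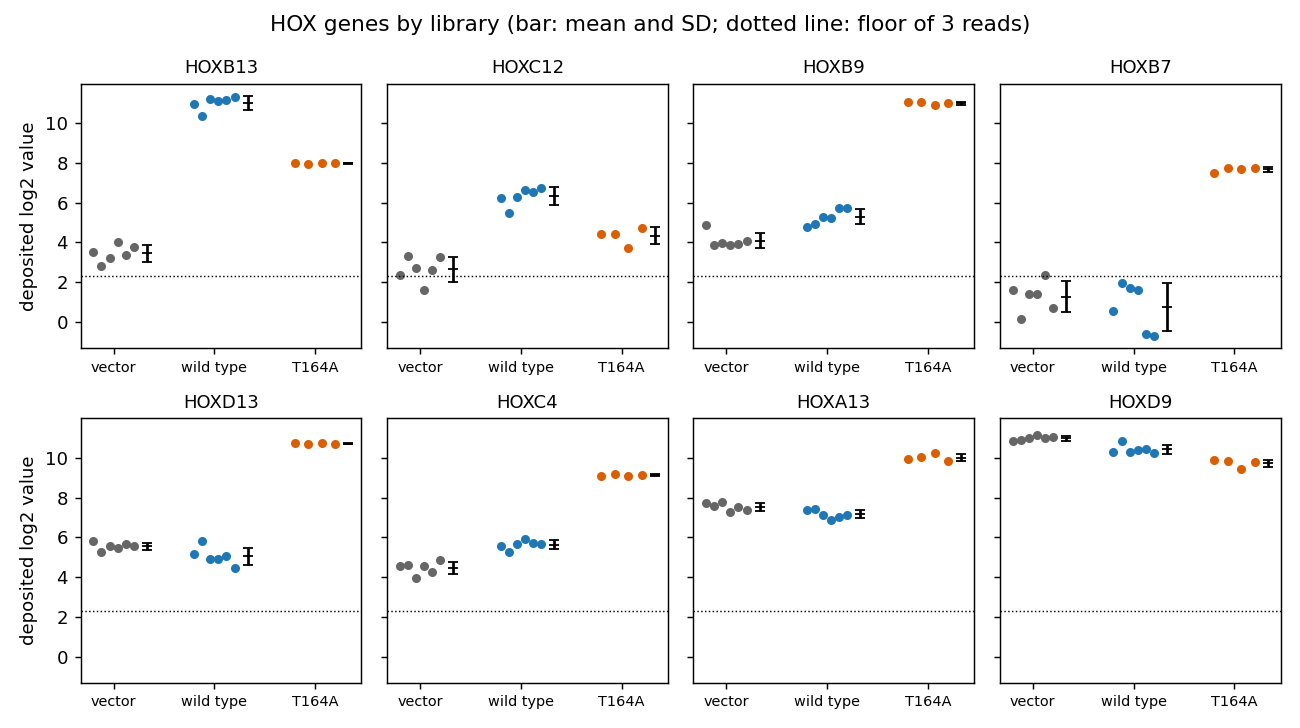
Deposited log2 value (vertical axis) of 8 HOX genes in each library, by group (horizontal axis), with the mean and SD of each group beside the points and the floor of 3 reads (2.30) as a dotted line. HOXB13 and HOXC12 are highest in wild type, HOXB9, HOXB7, HOXD13, HOXC4 and HOXA13 in T164A, and HOXD9 in vector.

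All 9 HOXC genes were higher in T164A. HOXC10, a gene of the lumbar spinal cord and hindlimb, was at 8.28, 8.30, 8.02 and 8.29 against 2.61 to 3.80 in vector (median 3.29), 4.94 higher (SE 0.27, limma adjusted p = 7.87e-15). HOXC4 was at 9.10, 9.19, 9.08 and 9.14, above its vector range by more than 4 units, and rose by 4.66 (SE 0.16, limma adjusted p = 1.44e-18). HOXC9, which organizes thoracic motor neurons, was at 8.20, 8.01, 7.84 and 7.95 against 4.11 to 5.06 (median 4.65), 3.37 higher (SE 0.20, limma adjusted p = 7.13e-14).

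The other HOXC rises were smaller. HOXC5 stood at 6.07, 5.83, 5.87 and 5.71 (2.05 higher, limma adjusted p = 6.14e-08) and HOXC8, a thoracic gene, at 7.53, 7.56, 7.60 and 7.64 against 5.32 to 6.07 in vector (1.86 higher, limma adjusted p = 8.36e-10). HOXC12 rose by 1.70 (SE 0.32, limma adjusted p = 3.37e-05), with the values given above. HOXC11 (0.80) and HOXC13, a regulator of hair keratins (0.64), passed below 2-fold, and HOXC11 lost its call under quantile normalization (0.34, limma adjusted p = 0.0547). HOXC6, the leading HOXC gene per kilobase in vector, differed by 0.28 (SE 0.09, limma adjusted p = 0.00797) with ranges that overlapped: 7.68 to 8.12 in vector and 8.24, 8.22, 8.18 and 8.01 in T164A. Under quantile normalization its difference was -0.07 (adjusted p = 0.533), so its direction depended on the scaling.

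In HOXA, 10 of 11 genes were higher, 8 of them by 2-fold or more but 0 by 8-fold. HOXA13, mutated in the hand-foot-genital syndrome, was at 9.94, 10.05, 10.22 and 9.83 in T164A against 7.26 to 7.76 in vector (median 7.57) and 6.89 to 7.40 in wild type (median 7.13). It rose by 2.47 (SE 0.11, limma adjusted p = 3.85e-16), the largest difference of the cluster. HOXA10, a regulator of the uterus, was at 9.44, 9.44, 9.58 and 9.40 against 7.12 to 7.51 (median 7.46), 2.07 higher (SE 0.09, limma adjusted p = 6.68e-17). HOXA5, needed for lung formation, was at 9.69, 9.76, 9.67 and 9.66 against 7.74 to 8.00 (median 7.84), 1.85 higher (SE 0.08, limma adjusted p = 2.13e-16). In each of these genes the T164A libraries were above every other library. HOXA6 was at 7.70, 7.54, 7.53 and 7.53 (2.30 higher) and HOXA4 at 5.595, 5.43, 5.51 and 5.61 (1.78 higher, SE 0.32, limma adjusted p = 2.04e-05). HOXA11 was at 8.96, 8.86, 8.82 and 8.78 (1.61 higher) and HOXA9 at 7.81, 7.88, 7.62 and 7.85 (1.25 higher). HOXA3 (0.84) and HOXA7 (0.73) passed below 2-fold. The HOXA7 call ended under quantile normalization (0.018, limma adjusted p = 0.954), with close libraries averaged (0.67, adjusted p = 0.0725) and without vector replicates 3, 4 and 6 (0.53, adjusted p = 0.0648). HOXA2 differed by -0.13 (limma adjusted p = 0.563), but was called lower under quantile normalization (-0.81, adjusted p = 0.000215). Apart from HOXA2 and HOXA5, each HOXA gene overlaps another transcript in the annotation, among them HOTTIP at HOXA13 on the opposite strand.

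HOXD split. HOXD13, the terminal gene and a regulator of digits and the urogenital tract, was at 10.77, 10.70, 10.72 and 10.69 in T164A, against 5.27 to 5.81 in vector (median 5.57) and 4.47 to 5.79 in wild type. No library of the other groups came within 4 units of it. It rose by 5.16 (SE 0.17, limma adjusted p = 4.75e-19) and has no overlapping gene. HOXD12, its neighbour, came up from a mean below the floor (-0.083 to 3.02 in vector) to 4.05, 3.29, 3.83 and 3.20, at least 1.29 higher (limma adjusted p = 0.00408), and HOXD11 (0.75) and HOXD3 (0.99) rose by less than 2-fold.

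The other 5 HOXD genes were the HOX genes that fell in T164A: HOXD1, HOXD4, HOXD8, HOXD9 and HOXD10. HOXD9 was at 9.87, 9.82, 9.46 and 9.77 in T164A against 10.82 to 11.17 in vector (median 10.99) and 10.26 to 10.84 in wild type (median 10.35), so every T164A library was below every other, while vector and wild type met only at wild-type replicate 14. It was lower than vector by 1.26 (SE 0.10, limma adjusted p = 8.54e-12), the only HOX gene lower by 2-fold or more. HOXD10 was at 10.98, 11.00, 10.96 and 10.94, below every vector library (-0.46, SE 0.07, limma adjusted p = 2.66e-06). HOXD8 lay at 8.07, 8.02, 8.03 and 8.02, also below every vector library (-0.61, SE 0.09, limma adjusted p = 6.63e-07). HOXD1 fell by 0.80 (SE 0.21, limma adjusted p = 0.00191) and HOXD4 by 0.22 (SE 0.10, limma adjusted p = 0.0433). The HOXD4 call ended in 7 of the 10 fits that left out 1 library (adjusted p 0.0653 to 0.108). HOXD10 and HOXD11 share annotated sequence, so reads may be split between them, yet their differences had opposite signs.

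Paralog number did not divide the rises from the falls. Of the genes numbered 1 to 4, 8 of 12 were higher in T164A and 2 lower, of those numbered 5 to 8, 10 of 11 and 1, and of those numbered 9 to 13, 14 of 16 and 2. The median differences of these sets were 1.01, 2.05 and 1.79. Leaving out each vector or T164A library in turn gave 32 higher genes in each fit and 4 or 5 lower ones. Without wild-type replicate 14 and T164A replicate 93 the counts were 32 and 5, and without vector replicates 3, 4 and 6 they were 31 and 4.

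The third comparison set the wild-type libraries directly against the T164A libraries. The construct cannot be told apart here from any other difference between these groups of libraries, such as culture or clone. In this comparison 32 of 39 genes were lower in wild type, 28 of them by 2-fold or more, and 3 were higher, HOXB13, HOXC12 and HOXD9. Over all genes 35.1% were lower and 26.7% higher, and 14.4% were lower and 10.5% higher by 2-fold or more. The groups did not overlap in 34 HOX genes, against 52.4% of all genes. HOXB13 was higher in wild type by 3.05 (SE 0.18, limma adjusted p = 1.03e-13), HOXC12 by 1.99 (SE 0.32, limma adjusted p = 4.2e-06) and HOXD9 by 0.69 (SE 0.10, limma adjusted p = 5.35e-07). In the opposite direction, HOXB9 differed by -5.71 (SE 0.19, limma adjusted p = 1.28e-18), HOXD13 by -5.67 (SE 0.17, limma adjusted p = 1.02e-19), HOXC10 by -4.85 (SE 0.27, limma adjusted p = 1.72e-14) and HOXB6 by -3.81 (SE 0.21, limma adjusted p = 1.84e-14).

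The 4 genes not called between wild type and T164A were HOXB1, HOXD1, HOXD8 and HOXD10. HOXD1 differed by 0.04 (SE 0.21), HOXD8 by -0.17 (SE 0.09) and HOXD10 by -0.10 (SE 0.07), with limma adjusted p of 0.888, 0.0894 and 0.253. Without wild-type replicate 14, HOXD8 and HOXD10 were called lower in wild type (-0.22, adjusted p = 0.019, and -0.16, adjusted p = 0.0136). By their 3 calls, 13 genes were lower than vector in wild type and higher than vector in T164A, and 13 more were not called in wild type and higher in T164A. Another 6 were higher than vector with both constructs, 4 of them higher in T164A than in wild type and 2, HOXB13 and HOXC12, lower. The vector libraries are shared by these comparisons. The joint patterns were not counted over all genes, so whether they are particular to HOX genes was not tested. Taken singly, 24.5% of all genes were lower in wild type and 37.1% higher in T164A than in vector.

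Seen as shares of the summed HOX level per kilobase, HOXD fell from its 75.7% in vector to 59.1% ± 4.7 (SD, n = 6) in wild type and 37.1% ± 0.27 (SD, n = 4) in T164A. A share also falls where the other clusters rise, so it does not measure the level of HOXD itself. In T164A 4 of 9 HOXD genes were higher than in vector and 5 lower, with a median difference of -0.22. HOXB went from 1.78% to 18.9% ± 4.1 and 24.4% ± 0.43. Different genes made up that HOXB share: HOXB13 alone was 16.7% ± 4.1 of the sum in wild type and 0.866% ± 0.028 in T164A, where HOXB9 gave 9.53% ± 0.25. HOXA held 10.9% ± 0.67 in wild type and 22.2% ± 0.59 in T164A, and HOXC 11.1% ± 1.1 and 16.2% ± 0.28. Per kilobase, the first 3 genes were HOXD10 (9.88), HOXD9 (9.51) and HOXB13 (9.23) in wild type, and HOXD10 (9.98), HOXB9 (9.63) and HOXD13 (9.55) in T164A.

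Genes around the clusters gave mixed results. TTLL6, a tubulin polyglutamylase gene that follows HOXB13 at that end of the cluster in the RefSeq annotation, had the same order of groups as HOXB13. It was above the floor in 1 vector library (-1.10 to 3.13, median 1.33), between 5.36 and 6.70 in wild type (median 6.37), and at 3.50, 3.30, 3.62 and 4.21 in T164A. The wild-type libraries were above all others. It was at least 3.89 above vector in wild type (limma adjusted p = 9.1e-10) and at least 1.36 in T164A (limma adjusted p = 7.53e-05), and higher in wild type than in T164A by 2.53 (SE 0.51, limma adjusted p = 8.91e-05). Of 12 genes beside the clusters, 2 were higher and 2 lower in wild type (HIBADH 0.66, CALCOCO1 -0.47 and SMUG1 -0.19 with TTLL6), and 5 were higher and 2 lower in T164A, among them HIBADH (1.19), SNX10 (1.14) and CALCOCO1 (-0.92). Set against 21.0% and 24.5% of all genes in wild type and 37.1% and 27.2% in T164A, these counts do not stand out.

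Of 9 non-coding RNAs transcribed inside the clusters, 4 were higher in T164A and 1 lower in wild type, against 37.1% and 24.5% of all genes. HOTAIR, the HOXC antisense RNA known for its link to Polycomb, was at 5.09 to 5.27 in vector and at 7.80, 7.75, 7.81 and 7.69 in T164A, 2.60 higher (SE 0.20, limma adjusted p = 6.41e-12). HOTTIP, which lies beyond HOXA13, was 1.56 higher (limma adjusted p = 2.7e-05). HOTAIRM1, in the HOXA cluster, was 0.62 higher in T164A (limma adjusted p = 1.1e-06) and 0.61 lower in wild type. It overlaps a transcript on the opposite strand, and reads of such a pair cannot be told apart. The fourth, MIR10A, was above the floor in 2 of the 4 T164A libraries.

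The TALE partners of HOX proteins were measured in full, 9 of 9. In wild type 7 were lower, by 0.61 at most (MEIS2), and 1 was higher, PKNOX2. The background for these counts, taken from 20166 symbols, was 24.5% called lower and 21.0% called higher. PKNOX2 was at -2.54 to 2.33 in vector (median 0.22), 5.96 to 7.19 in wild type (median 6.88) and 8.20, 8.18, 8.00 and 8.10 in T164A. Only 1 vector library was above the floor, and the 3 groups did not overlap. The rise was at least 4.45 in wild type (limma adjusted p = 6.99e-11) and at least 5.82 in T164A (limma adjusted p = 2.36e-12). In T164A 6 were higher and 2 lower, with MEIS3 at 2.82 (limma adjusted p = 8.97e-14) and MEIS2 at 0.96 (limma adjusted p = 3.25e-09) next in size to PKNOX2. The T164A background was 37.1% of symbols called higher and 27.2% called lower.

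Among 25 known regulators of HOX expression, 14 were higher and 4 lower in T164A, and 5 higher and 7 lower in wild type. Over all genes 37.1% were higher and 27.2% lower in T164A, and 21.0% and 24.5% in wild type, so the wild-type counts are near the background. CDX2, a caudal factor that activates HOX genes in the embryo, was at 1.81 to 3.83 in vector (median 3.30), 1.29 to 3.42 in wild type and 8.64, 8.43, 8.21 and 8.32 in T164A. It was 5.30 higher in T164A (SE 0.36, limma adjusted p = 1e-12). In the retinoic acid pathway, the receptor RARB (at least 5.21) and the degrading enzyme CYP26A1 (at least 4.39) came up from means below the floor in T164A, CYP26B1 rose by 2.27, and RARG fell by 1.06. Polycomb subunits also rose there: CBX2 by 2.09 (limma adjusted p = 4.79e-17), RNF2 by 1.94 (limma adjusted p = 6.9e-16), CBX8 by 1.17 and BMI1 by 1.10. In wild type the histone H3 demethylase KDM6A rose by 1.29 (limma adjusted p = 1.21e-14), CBX8 by 1.03 (limma adjusted p = 2.94e-09) and RARB by at least 1.64. The part of any of these in the HOX values was not tested.

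Among the 6 wild-type libraries, HOXB13 moved with the luminal marker KLK3, which encodes prostate-specific antigen, a pattern chosen after its values were seen. HOXB13 spanned 0.999 and KLK3 1.15 across these libraries, but the gap between them stayed between 3.999 and 4.16, a span of 0.17. For HOXC12 the gap to KLK3 spanned 0.47, and for TTLL6 0.44. The other HOX genes raised 2-fold in wild type did not keep a steady gap: that of HOXB9 spanned 0.90, with its own values spanning 0.92, and that of HOXC4 spanned 0.77, with its own spanning 0.63. HOXD8 and HOXD11 went with the basal keratin KRT5 instead: their gap to KRT5 spanned 0.19 and 0.20, and their gap to KLK3 1.61 and 1.64. HOXD9 and HOXD10 kept a less steady gap to KRT5. It spanned 0.52 for HOXD9, with its own values spanning 0.58, and 0.36 for HOXD10, with its own spanning 0.51. Their gap to KLK3 spanned 1.73 and 1.66. Of the 19 HOX genes lower in wild type than in vector, 11 were highest in replicate 14, where HOXB13 and KLK3 were lowest, and 10 were lowest in replicate 18, where HOXB13 and KLK3 were highest. This is a description over 6 libraries, and no test was made.

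**Figure D4:**
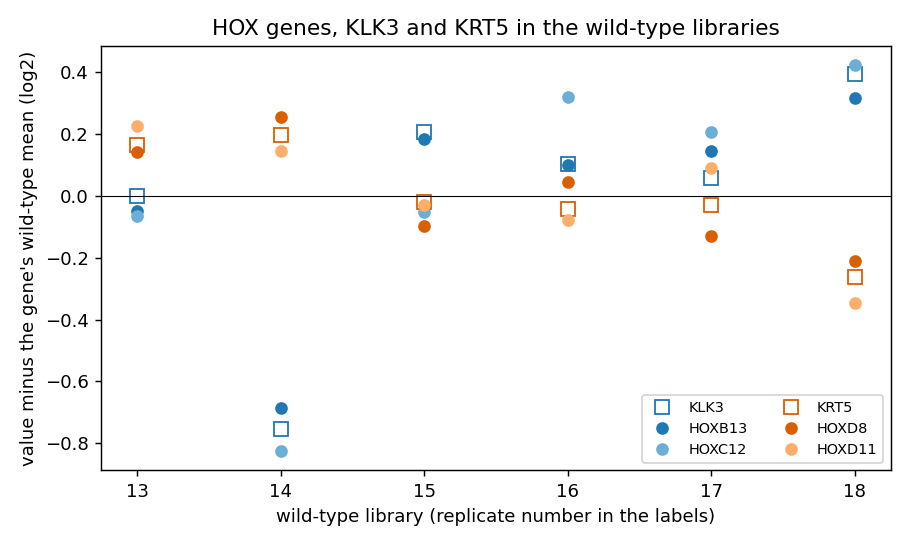
Deviation from the wild-type mean (vertical axis, log2) of HOXB13 and HOXC12 with KLK3, and of HOXD8 and HOXD11 with KRT5, in each of the 6 wild-type libraries (horizontal axis, replicate number in the labels). In replicate 14 the first set lies below its mean and the second above, and in replicate 18 the reverse. HOXD9 and HOXD10, which kept a less steady gap to KRT5, are not drawn.

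The spread between libraries also differed by group. Among genes with a mean of at least 6, the median SD of HOX genes was 0.14 in vector (17 genes), 0.19 in wild type (18 genes) and 0.08 in T164A (29 genes), against 0.11, 0.12 and 0.13 over all such genes. HOXB13 in T164A was the extreme, with an SD of 0.01 over 4 libraries.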

How the data were processed

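Poly-A RNA was sequenced after TruSeq preparation on an Illumina HiSeq, per the labels' protocols, which name no strand marking. The submitters' processing notes list, with no roles, the build GRCh37 and the tools DESeq, Cufflinks 2.0.2, TopHat2 2.0.4 and CASAVA 1.8.2. The authors deposited 1 table of log2 values (their transformation: not given in the sources used here). Above 11.5, 2 raised to the value falls on equal steps after an offset of 1.89, but between 10 and 10.5 only 8.38% to 11.2% of values do (within 0.05 of a step), so counts could not be read back and count tests were left out. The steps gave the depth and the floor (3 reads, 2.30), which covers counting error only. Differences against a group mean below the floor are bounds, and no fold is given where both means are below it.

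Of rows sharing a symbol the highest mean was kept (20166 symbols; no HOX symbol was repeated). All 16 libraries entered 1 limma 3.58.1 fit in R 4.3.3 (variance trend in the empirical Bayes step, no covariates), with 3 two-sided contrasts and Benjamini-Hochberg adjustment over all symbols. Chi-square tests on estimated reads between libraries of 1 group gave 4.34 to 152 per degree of freedom, so none was merged. The script was tested on simulated data. Levels per kilobase subtract the offset and use the median GENCODE v29 coding transcript length (GRCh38). HOX genes called by 2-fold or more, or leading their cluster, were named. HOXA2, HOXA7, HOXB1, HOXD1, HOXD4 and HOXD8 are outside that rule and were named after their values were seen. List genes (at most 5 per list and comparison) were ranked by p. The members, the gene lists and the rules were chosen with earlier results of these data known. Some genes, among them the one carried by the constructs, are not reported here and were left out of the figures and of the screen for outlying libraries, but not of the counts.

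Alternatives were quantile normalization, a filter on low values, raising values to the floor, array weights, a fit of the 2 groups alone, a minimum fold of 1.2, a fit without the variance trend, averaging symbols' rows, averaging close libraries (vector 1 and 2; vector 3, 4 and 6; wild type without 14; T164A without 93), and leaving out each library. Leaving out vector replicates 3, 4 and 6, or wild-type replicate 14 with T164A replicate 93, was added after seeing the data.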

Additional observations from a re-analysis of the deposited data

Results flagged for a closer look

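In 12 of 103 sets of HOX values (1 gene in 1 group of 4 or 6 libraries), 1 library lay further from the rest than Dixon's 95% limit allows; chance gives about 1 in 20. In vector these were HOXA10 in replicate 6 (7.12, others 7.38 to 7.51), HOXB5 in replicate 5 (-0.99, below the floor, others 2.46 to 3.39), HOXB9 in replicate 1 (4.85, others 3.86 to 4.08) and HOXD8 in replicate 4 (8.49, others 8.65 to 8.73). In wild type they were HOXB13 and HOXD9 in replicate 14, the first the lowest (10.34, others 10.97 to 11.34) and the second the highest (10.84, others 10.26 to 10.43), HOXA7 in replicate 15 (4.06, others 4.41 to 4.58) and HOXD3 in replicate 18 (5.57, others 6.13 to 6.36). In T164A, HOXA6 (7.70, others 7.53 to 7.54) and HOXA7 (5.56, others 5.16 to 5.22) were highest in replicate 91, and HOXA3 (7.38, others 7.70 to 7.74) and HOXC10 (8.02, others 8.28 to 8.30) lowest in replicate 93. Replicates 14 and 93 are also the libraries that lay furthest from the others of their group over the 547 genes used for that comparison.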

How the results depend on the processing

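No paired analysis was possible because the groups share no replicate numbers (1 to 6, 13 to 18 and 91 to 94). The count of HOX genes lower in wild type than in vector, 19, was 10 with a minimum fold of 1.2 and 10 with close libraries averaged, which leaves fewer samples. The other counts stayed within 1.5 times of their value in each alternative run. Leaving out 1 library at a time gave 4 to 7 higher and 18 to 20 lower HOX genes in wild type against vector, 32 higher and 4 to 5 lower in T164A against vector, and 3 higher and 31 to 34 lower in wild type against T164A. HOXC6 in T164A against vector turned from 0.28 to -0.069 under quantile normalization (limma adjusted p = 0.533), the 1 reversal of a called gene; the cause was not tested. Of 110 gene results, 96 were called and 28 changed sides of the threshold in at least 1 alternative, such as HOXD9 in wild type against vector with close libraries averaged (-0.39, limma adjusted p = 0.0634). Quantile normalization moved the median of genes with a mean of at least 6 by -0.17 (T164A minus vector) and 0.14 (wild type minus T164A). Depth limits HOXB1, HOXB2, HOXB7, HOXB8 and HOXD12, whose differences are bounds or not given.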

Other observations

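Markers of other cell types were also read in the same libraries. Of 8 mesenchymal markers, 5 were higher and 2 lower in T164A than in vector, and 1 was higher and 2 lower in wild type. VIM, the highest of these markers in T164A, stood at 12.33 ± 0.045 (SD, n = 4) there. It was at 7.54 ± 0.35 (SD, n = 6) in vector and 7.44 ± 0.16 (SD, n = 6) in wild type. The collagen gene COL3A1 reached 6.76 ± 0.16 (SD, n = 4) in T164A and had a mean below the floor in the other groups (1 wild-type library passed it), while COL1A1 was at 10.86 ± 0.21 (SD, n = 6) in vector and 9.24 ± 0.22 (SD, n = 4) in T164A. Of 3 endothelial markers 1 was higher and 1 lower in each comparison with vector. Of 4 leukocyte markers 0 were higher and 2 lower in wild type, and 1 was higher and 2 lower in T164A. Of 9 basal markers, 2 were higher and 5 lower in T164A than in vector. KRT15 stood at 11.94 ± 0.08 (SD, n = 6) in vector and 8.55 ± 0.36 (SD, n = 4) in T164A, KRT17 at 14.61 ± 0.20 and 12.47 ± 0.18, and KRT14 at 14.53 ± 0.17 and 14.31 ± 0.15. Over all genes 37.1% were higher and 27.2% lower in T164A than in vector, and 21.0% and 24.5% in wild type. KLK3, which encodes prostate-specific antigen, had a mean below the floor in T164A (0.73) and also in vector (2.14). It passed the floor in 3 vector libraries and in 0 T164A libraries.

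Of the 12 luminal markers, 5 were higher and 3 lower in T164A than in vector. Of the 6 squamous markers, 5 were lower in wild type than in vector. Of the 8 embryonic and neural markers, 1 was higher and 1 lower in wild type than in vector. Over all genes 37.1% were higher and 27.2% lower in T164A than in vector, and 21.0% and 24.5% in wild type. Against these shares the luminal counts in T164A and the embryonic and neural counts in wild type do not stand out.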
